A study of Mus musculus with 3 samples.

Results

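The SR splicing factors described here are 10 genes, Srsf1, Srsf2, Srsf3, Srsf4, Srsf5, Srsf6, Srsf7, Srsf9, Srsf10 and Srsf11, chosen by gene symbol out of 55536 annotated mouse genes. Together they have 85 of the 141767 transcripts that both transcript tables of the study list. The samples form 1 group of 3 libraries of total RNA depleted of ribosomal RNA. The RNA came from the cytosolic fraction of C57BL/6J bone marrow-derived macrophages, which are primary cells grown from marrow precursors. Lipid A, the TLR4-activating moiety of bacterial lipopolysaccharide, was the stimulus at 100 ng/ml, and the cells were taken at 0 min, so no stimulated sample is set against them. The 3 libraries are labelled as biological replicates 1, 2 and 3, with 1 donor label for all of them. Whether they came from separate cultures or separate mice is not labelled, so each SD below is the spread of 3 samples and may be technical. The sex and age of the mice were not collected, per the labels. All 8 macrophage markers examined, among them Csf1r and Adgre1, were at a TPM of at least 1 in every library. All 12 markers of other blood and connective tissue lineages were below 1 in every library, and their summed level was 0.61, 0.49 and 0.74 TPM in replicates 1, 2 and 3, with Cd3e and Hba-a1 at 0 throughout. TPM (relative transcript abundance) is scaled by transcript length, with an equal sum in every library.

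SR proteins bind exons of nuclear pre-mRNA through RNA recognition motifs and recruit the splicing machinery through domains rich in arginine and serine. They control their own amounts by alternative splicing of their own pre-mRNA. Inclusion of a poison exon brings in an early stop codon and sends the mRNA to nonsense-mediated decay, which acts on translated mRNA in the cytoplasm, and transcripts that keep an intron are often held in the nucleus. The annotation sorts transcripts into types. Of the 85 SR transcripts, 29 are typed protein_coding, 26 retained_intron, 15 nonsense_mediated_decay and 15 processed_transcript. The last is a class without an annotated reading frame. A nonsense_mediated_decay transcript does have a reading frame, so the types other than protein_coding are called other-type isoforms here, and the type is a label from the annotation and not a measurement of decay.

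Sequences of 3 extra exons show what separates a nonsense_mediated_decay isoform from its protein_coding partner. Each runs from the first base of the exon to its first in-frame stop codon, which is in capitals, and comes from the GENCODE M21 transcripts (mm10).
Srsf3-201, chr17:29039454-29039487, + strand: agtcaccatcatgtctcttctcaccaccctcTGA
Srsf6-201, chr2:162932815-162932966, + strand: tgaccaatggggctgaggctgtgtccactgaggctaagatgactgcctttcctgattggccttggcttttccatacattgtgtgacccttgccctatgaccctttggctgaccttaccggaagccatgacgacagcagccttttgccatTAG
Srsf7-203, chr17:80205054-80205081, - strand: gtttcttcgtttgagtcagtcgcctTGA
The stop codon closes after 34 bases of the Srsf3 exon, 152 bases of the Srsf6 exon and 28 bases of the Srsf7 exon. The whole exons are 456 bases (exon 4 of 7 in Srsf3-201), 268 bases (exon 3 of 7 in Srsf6-201) and 460 bases (exon 4 of 9 in Srsf7-203). Each is followed by at least 3 further exons. None of the 3 exons overlaps an exon of the most abundant protein_coding transcript of its gene, which is Srsf3-202, Srsf6-203 or Srsf7-208.

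Each of these exons also lies inside an intron that a retained_intron transcript of the same gene keeps. The kept introns are 2150 bases in Srsf3-204, 1283 bases in Srsf6-204 and 874 bases in Srsf7-206, and Srsf5-212 keeps an intron of 1229 bases. The 5′ edges of those introns are shown because reads across them separate the retained form from the spliced one, with the last 10 exon bases in capitals and 30 intron bases after them.
Srsf5-212, chr12:80947856-80947895, + strand: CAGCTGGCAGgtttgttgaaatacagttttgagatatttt
Srsf3-204, chr17:29038615-29038654, + strand: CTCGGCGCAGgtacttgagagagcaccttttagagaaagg
Srsf6-204, chr2:162932133-162932172, + strand: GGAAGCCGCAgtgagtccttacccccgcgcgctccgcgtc
Srsf7-206, chr17:80205232-80205271, - strand: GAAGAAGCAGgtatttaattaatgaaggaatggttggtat
The last 30 bases of the same introns follow, with the closing dinucleotide in capitals.
Srsf5-212, chr12:80949065-80949094, + strand: ctctccttaacataattgtcttgtgttaAG
Srsf3-204, chr17:29040745-29040774, + strand: ttagcctaattttactgtttctgcttctAG
Srsf6-204, chr2:162933396-162933425, + strand: gcatctaattactcccttcatgtgataaAG
Srsf7-206, chr17:80204388-80204417, - strand: tatgttgtatttttctaacttaaaaaatAG
All 4 introns open with GT and close with AG. Srsf3-204 also keeps the next intron of Srsf3-202, of 393 bases, which is not shown and does not hold the extra exon.

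All 10 SR genes were expressed, and their gene levels in the RSEM-format tables spanned 7.50 to 41.6 TPM as means of 3 libraries. Their median level was 13.8 TPM, against 7.19 TPM over the 9018 protein-coding genes at a TPM of at least 1 in every library, a set that includes them. Srsf5, a factor with a pair of RNA recognition motifs, was the highest, with 42.54, 33.50 and 48.69 TPM in replicates 1, 2 and 3. Srsf2 (SC35) had 31.92, 27.94 and 39.94 TPM, and its range overlapped that of Srsf5. Srsf1, the prototype of the family, had 20.24, 20.75 and 19.37 TPM, and its range did not reach that of Srsf2. Srsf9, a close relative of Srsf1 with a short arginine and serine domain, had 21.60, 19.57 and 17.90 TPM and could not be ordered against Srsf1. Srsf3, the smallest SR protein and an adaptor for mRNA export, had 19.07, 13.15 and 16.19 TPM, a range that overlapped that of Srsf9.

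Below these by mean came Srsf6 (11.5 ± 1.34 TPM), Srsf11 (11.5 ± 2.92 TPM), Srsf10 (11.1 ± 1.30 TPM) and Srsf7 (10.6 ± 1.71 TPM; SD, n = 3 for each), and each of these 4 genes overlapped the next among them. Srsf11, at 9.10 to 14.73 TPM, also overlapped Srsf3, at 13.15 to 19.07 TPM. Srsf6 is a relative of Srsf5, Srsf7 a relative of Srsf3 with a zinc knuckle, Srsf10 a splicing repressor when dephosphorylated, and Srsf11 an SR-related protein. Srsf4 was the lowest, with 7.86, 7.14 and 7.49 TPM, below every library of Srsf7. The order of the 10 genes was the same in the kallisto-format tables. Levels varied between libraries by a coefficient of variation with a median of 13.9% over the SR genes, against 12.3% over all 9018 protein-coding genes. Protein-coding genes held only 21.7 to 26.2% of gene TPM per library, so levels look low on this scale. After rescaling each library to an equal sum over protein-coding genes, the medians were 11.8% for the SR genes and 7.44% for all of them. Srsf2 overlaps Mettl23 over its whole length and Mfsd11 over 655 bases, both on the opposite strand. The strand setting was not given in the sources used here, so reads of these genes and Srsf2 may not be fully separated. Mfsd11 stood at 46.21, 42.72 and 41.47 TPM and Mettl23 at 4.78, 2.99 and 3.39 TPM.

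Other-type isoforms took a minor part of SR gene expression in this fraction. In the RSEM-format tables they held 14.5%, 17.5% and 23.6% of the summed TPM of the 10 genes in replicates 1, 2 and 3, and protein_coding transcripts held 85.5%, 82.5% and 76.4%. The mean was 18.5 ± 4.66% (SD, n = 3). The same share was 8.58%, 8.67% and 9.79% over the other genes with transcripts of both kinds. Those other genes and the SR genes together number 7454 protein-coding genes with a TPM of at least 1 in every library, and all 10 SR genes passed that filter. The median share per gene was 12.0% over the SR genes and 4.25% over the other genes. No SR gene had a share above 50% in every library, a state that 3.8% of the 7454 genes reached. In no SR gene was the most abundant transcript an other-type isoform in every library, as it was in 3.77% of genes. None of the 8 SR genes with annotated retained_intron transcripts had one of them as its most abundant transcript in every library, against 1.51% of genes with that type. With background shares this low, a count of 0 among so few genes does not set the SR genes apart.

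**Figure D1:**
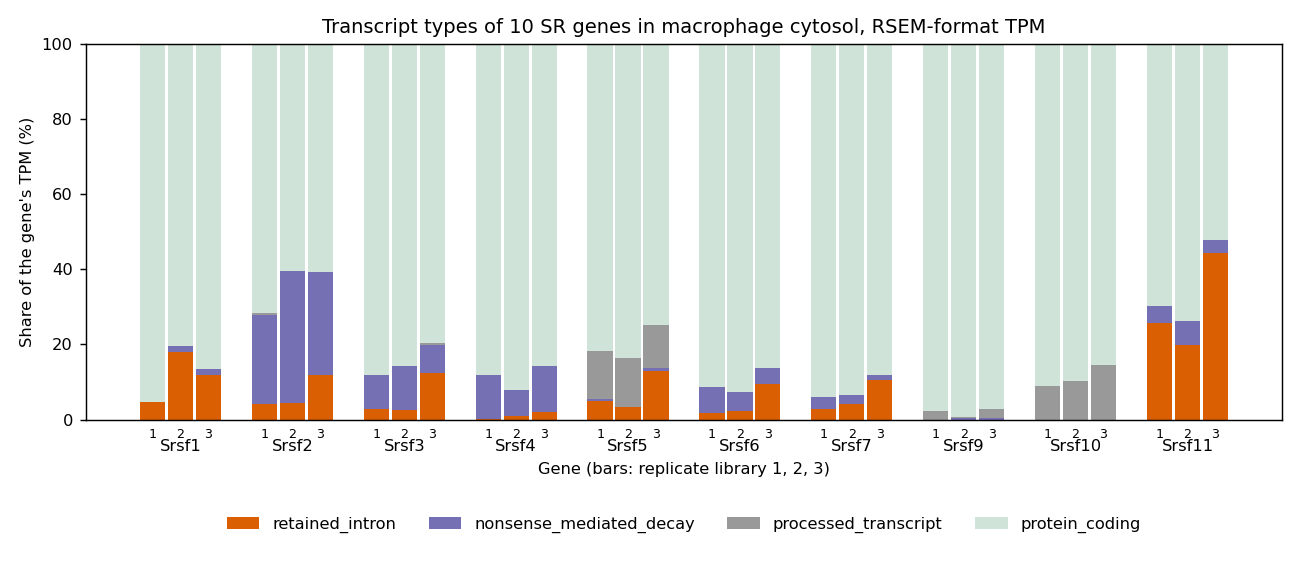
Share of each gene's TPM (%, vertical axis) by annotated transcript type, stacked, for 10 SR genes with 1 bar per replicate library, from the RSEM-format tables. Other-type isoforms reach 47.8% in Srsf11 and stay at or below 2.85% in Srsf9.

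The share differed widely between genes. In RSEM-format TPM Srsf2 and Srsf11 had the highest mean, and Srsf9 the lowest. The order depended on the scale: Srsf6 had the highest mean in kallisto-format TPM, at 48.5%, and Srsf2 was there at 28.7%. By expected counts (estimated reads, which need not be whole) Srsf11 stood at 20.4%, Srsf5 at 18.5% and Srsf2 at 17.7%. With nonsense_mediated_decay transcripts counted as protein_coding Srsf2 stood at 7.0%, and Srsf4 was the lowest at 0.989%. Other-type isoforms of Srsf2 held 28.5%, 39.6% and 39.2% of its TPM in replicates 1, 2 and 3. Those of Srsf11 held 30.3%, 26.2% and 47.8%, so replicate 3 stood well above the other libraries. In Srsf9 the share was 2.27%, 0.716% and 2.85%. The remaining 7 genes had means between 8.17% (Srsf7) and 19.9% (Srsf5). The share of Srsf1 was the least stable of these, at 4.55%, 19.5% and 13.5%.

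The genes also differed in which other type prevailed. In Srsf2 it was nonsense_mediated_decay, and nearly all of it was Srsf2-204, a transcript of 620 bases and 3 exons (chr11:116849906-116852086). Srsf2-204 had 7.53, 9.86 and 10.94 TPM, against 20.93, 14.62 and 22.50 TPM for the protein_coding Srsf2-201. In the RSEM-format tables it was the most abundant other-type isoform of the family and held most of the summed nonsense_mediated_decay TPM of the 10 genes, which was 12.08, 13.61 and 14.98 in the same order. In the kallisto-format tables it had 1.91, 3.49 and 2.56 TPM, and the nonsense_mediated_decay transcript Srsf6-201 was above it in replicate 1 at 2.97 TPM. It drew 139, 337 and 487 expected counts.

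In Srsf3 the extra-exon isoform Srsf3-201 had 1.76, 1.52 and 1.21 TPM, against 16.79, 11.28 and 12.92 TPM for Srsf3-202. It was lowest in replicate 3, and the ranges of the pair were far apart. Srsf4-204 had 0.77, 0.42 and 0.66 TPM, against 6.93, 6.57 and 6.41 TPM for Srsf4-202. Srsf6-201 had 0.85, 0.49 and 0.55 TPM, against 11.28, 9.19 and 10.52 TPM for Srsf6-203, and this low share is the value that depended most on the table used. In RSEM-format TPM the protein_coding transcript of each of these genes was higher in every library.

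In Srsf5 and Srsf10 processed_transcript isoforms carried much of the share. Srsf5-211 had 3.03, 2.32 and 3.05 TPM and Srsf5-206 had 2.39, 2.05 and 2.47 TPM, levels that varied little between libraries. In the RSEM-format tables they together made up most of the 7.19, 5.43 and 7.79 TPM that processed_transcript isoforms held over the 10 genes. All other-type transcripts of Srsf10 are typed processed_transcript, and the highest, Srsf10-207, had 0.94, 0.59 and 1.19 TPM against 4.62, 3.67 and 3.95 TPM for the protein_coding Srsf10-204. In Srsf9, Srsf9-202 of the same type had 0.35, 0.06 and 0.38 TPM, against 20.76, 19.31 and 17.37 TPM for the protein_coding Srsf9-201.

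In RSEM-format TPM retained_intron isoforms had the highest mean share of the other types in Srsf1, Srsf7 and Srsf11. Over its 11 retained_intron transcripts Srsf11 had 2.74, 1.81 and 6.52 TPM, against 7.40, 6.71 and 7.70 TPM over its 5 protein_coding transcripts. Its retained_intron sum was highest in replicate 3, while its protein_coding sums lay within 1 TPM of each other. Srsf11-208, which ends inside an intron of 3774 bases of the protein_coding Srsf11-204, had the highest mean of the 11 and stood at 0.70, 0.40 and 2.09 TPM, against 5.38, 4.03 and 3.71 TPM for Srsf11-204. Srsf11-211 was above it in replicates 1 and 2, at 0.77, 0.76 and 1.03 TPM. Srsf7-206 had 0.33, 0.31 and 0.81 TPM, against 7.67, 5.17 and 6.08 TPM for Srsf7-208. Srsf1-203 had 0.92, 3.61 and 1.98 TPM, against 9.43, 7.33 and 7.82 TPM for the protein_coding Srsf1-205. The highest library of Srsf1-203 was replicate 2, and its 95% credibility interval, which covers counting and read assignment within 1 library, spanned nearly 0 to 2.69 TPM in replicate 1.

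The retained_intron isoforms were not spread evenly over the libraries. Summed over the 10 genes they had 8.23, 8.82 and 24.34 TPM in replicates 1, 2 and 3, which is 4.33%, 5.53% and 12.2% of SR gene TPM. The corresponding shares were 6.36%, 8.54% and 7.51% for nonsense_mediated_decay and 3.78%, 3.41% and 3.91% for processed_transcript, which did not stand apart in replicate 3. The retained_intron share averaged 7.36% over 3 libraries and 4.93% without replicate 3. This reading by library was chosen after the values had been seen.

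High values in replicate 3 recurred from gene to gene. Srsf5-212 had 1.95, 0.94 and 5.91 TPM, against 18.71, 15.62 and 22.98 TPM for the protein_coding Srsf5-201. Srsf2-203, which keeps an intron of 1059 bases, had 1.33, 1.20 and 4.72 TPM. Srsf3-204 had 0.28, 0.15 and 0.99 TPM. Replicate 3 was the highest library for each. Srsf6-204 had 0.23, 0.23 and 1.14 TPM, with 95% credibility intervals of 0.957 to 1.29 TPM in replicate 3, 0.120 to 0.375 TPM in replicate 1 and 0.149 to 0.333 TPM in replicate 2. Srsf4-201 was near the limit of the tables, at 0.02, 0.06 and 0.14 TPM.

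**Figure D2:**
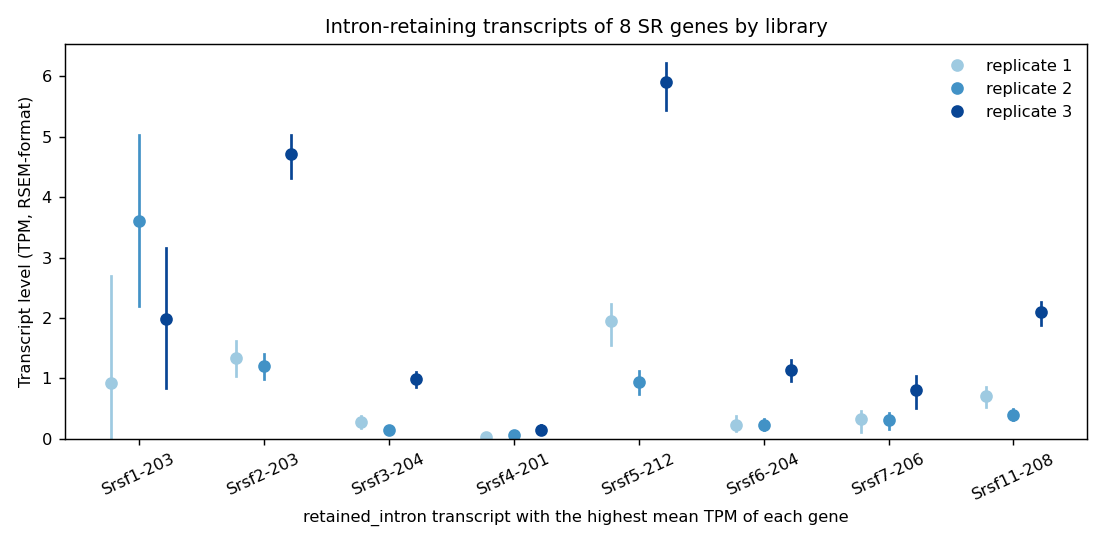
Level in TPM (vertical axis, RSEM-format) of the most abundant retained_intron transcript of each of 8 SR genes in 3 replicate libraries, with lines for the 95% credibility interval of each library. Replicate 3 is the highest library for every transcript except Srsf1-203, whose highest value, 3.61 TPM, is in replicate 2.

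The high values in replicate 3 were shared by other genes. The retained_intron share was highest in replicate 3 in 7 of 8 SR genes, and in 79.9% of the 5471 genes with any signal of that type, so the count of SR genes is close to the background. Srsf1 was the exception. The share in replicate 3 divided by the mean of replicates 1 and 2 had a median of 3.08 over the 8 SR genes, with a range of 1.06 (Srsf1) to 4.62 (Srsf3). The same median was 2.51 over 4140 other genes with a share above 0 in every library. For nonsense_mediated_decay the median ratio was 0.764 over the 7 SR genes with a share above 0 in every library, and 0.991 over 1592 other genes. The nonsense_mediated_decay share was highest in replicate 3 in 3 of 9 SR genes, against 36.4% of genes. Over all other-type isoforms, the share was highest in replicate 3 in 8 of 10 SR genes, against 66.1% of genes.

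At the level of transcripts, 15 of the 26 retained_intron transcripts of the SR genes had a mean of at least 0.1 TPM. In 10 of these 15 the 95% credibility interval of replicate 3 lay above the intervals of both other libraries, which held for 24.1% of 5321 retained_intron transcripts of all genes past the same filter. The 10 belong to Srsf2, Srsf3, Srsf5, Srsf6, Srsf7 and Srsf11. The filter uses the mean, so it also admits transcripts that are high in replicate 3 alone, and the median level of the SR genes is above that of all protein-coding genes, as given above. The part of either in the count was not tested. None of the 10 nonsense_mediated_decay transcripts of SR genes past the filter met the rule, which 2.95% of all such transcripts did. None of the 10 had an interval of replicate 3 below both others, as 0.879% of all such transcripts did. Among 24 protein_coding SR transcripts, Srsf2-201, Srsf5-201 and Srsf11-202 met it, against 1.95% of 16438 such transcripts of all genes. The interval of replicate 3 lay below both others for Srsf5-203 and Srsf9-201, against 6.98% of those 16438.

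Other measures moved with replicate 3. Malat1, a long noncoding RNA of nuclear speckles, had 223.75, 206.53 and 1008.18 TPM in replicates 1, 2 and 3. Neat1, the scaffold RNA of nuclear paraspeckles, had 18.65, 16.70 and 92.54 TPM. The whole list of 7 nuclear-retained RNAs summed to 243.12, 223.76 and 1101.71 TPM, with 5 of 7 below 1 TPM in every library and Meg3 and Miat at 0. Replicate 3 was also the deepest library, with 56290298 expected counts over genes, against 26318761 in replicate 1 and 41897257 in replicate 2. The part of nuclear RNA or of depth in the retained_intron levels was not tested. In bulk RNA, more cells with such transcripts and more of them per cell cannot be told apart.

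**Figure D3:**
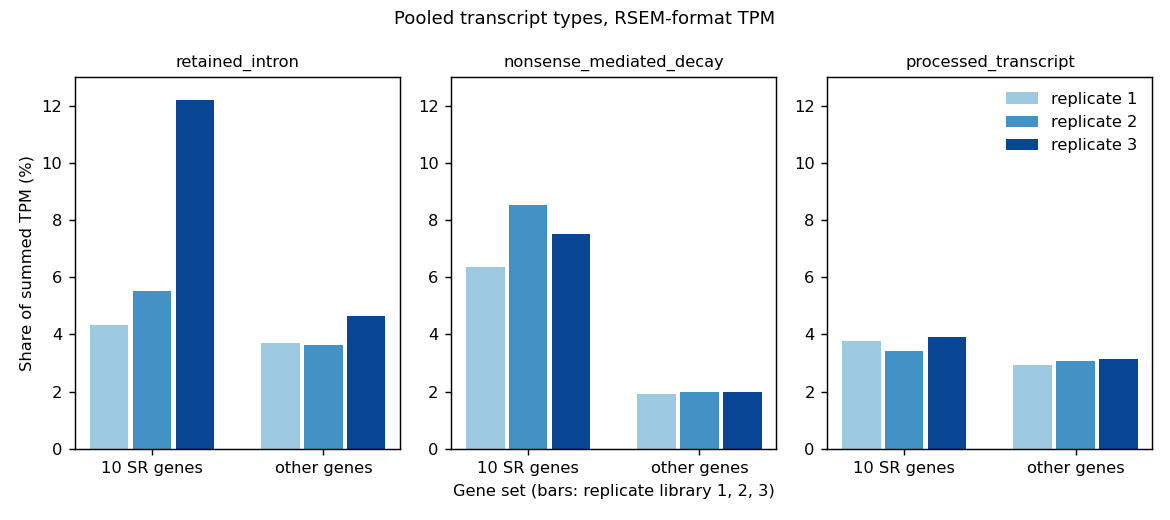
Share of summed TPM (%, vertical axis) in 3 other types for the 10 SR genes (left group of bars) and for the other genes with transcripts of both kinds (right group), by replicate library. The retained_intron share of the SR genes is 12.2% in replicate 3, against 4.64% in the other genes.

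Pooled over genes by TPM, the retained_intron share of the SR genes exceeded that of the other genes in every library. It was 4.33% in the SR genes and 3.70% in the other genes in replicate 1. The same pair was 5.53% and 3.62% in replicate 2, and 12.2% and 4.64% in replicate 3. The single transcript Srsf1-203 supplied 0.92, 3.61 and 1.98 of the 8.23, 8.82 and 24.34 TPM in the SR genes, so much of the replicate 2 value came from 1 gene. The median per gene was 3.46%, 3.77% and 11.9% over the 8 SR genes, against 1.18%, 0.986% and 3.96% over 5682 other genes. For nonsense_mediated_decay the pooled share was 6.36%, 8.54% and 7.51% in the SR genes and 1.93%, 1.98% and 2.00% in the other genes. Srsf2-204 supplied 7.53, 9.86 and 10.94 of the 12.08, 13.61 and 14.98 TPM in the SR genes. The type is annotated in 9 of the 10 SR genes but in 2790 of the 7444 other genes. Most other genes could therefore add nothing to their pooled share. Over genes with that type, the median per gene was 4.43%, 4.92% and 3.53% in the SR genes. In the other genes it was 1.67%, 1.52% and 2.02%.

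By share of TPM, replicate 3 stood at opposite ends for the extra exon and the intron that contains it in Srsf3, Srsf6 and Srsf7. In Srsf3, the retained_intron transcript Srsf3-204 took 1.47%, 1.14% and 6.11% of the gene's TPM in replicates 1, 2 and 3, and the extra-exon transcript Srsf3-201 took 9.23%, 11.6% and 7.47%. In Srsf6, Srsf6-204 took 1.86%, 2.31% and 9.34% and Srsf6-201 took 6.88%, 4.92% and 4.50%. In Srsf7, Srsf7-206 took 2.76%, 3.56% and 7.23% and Srsf7-203 took 3.34%, 2.30% and 1.25%. In all 3 genes the share of the retained_intron transcript was highest in replicate 3 and that of the extra-exon transcript lowest there. Both shares come from the same total, and reads inside the extra exon fit both transcripts, so the values are not independent. The kallisto-format tables quantify the same 3 libraries, so they are not a second observation. They also placed replicate 3 highest for the retained_intron transcript and lowest for the extra-exon transcript in all 3 genes. There, replicate 3 over the mean of replicates 1 and 2 was 4.27, 5.45 and 2.92 for Srsf3-204, Srsf6-204 and Srsf7-206. The same ratio was 0.731, 0.600 and 0.422 for Srsf3-201, Srsf6-201 and Srsf7-203. With 3 libraries and a library picked after its values were seen, no test was made.

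**Figure D4:**
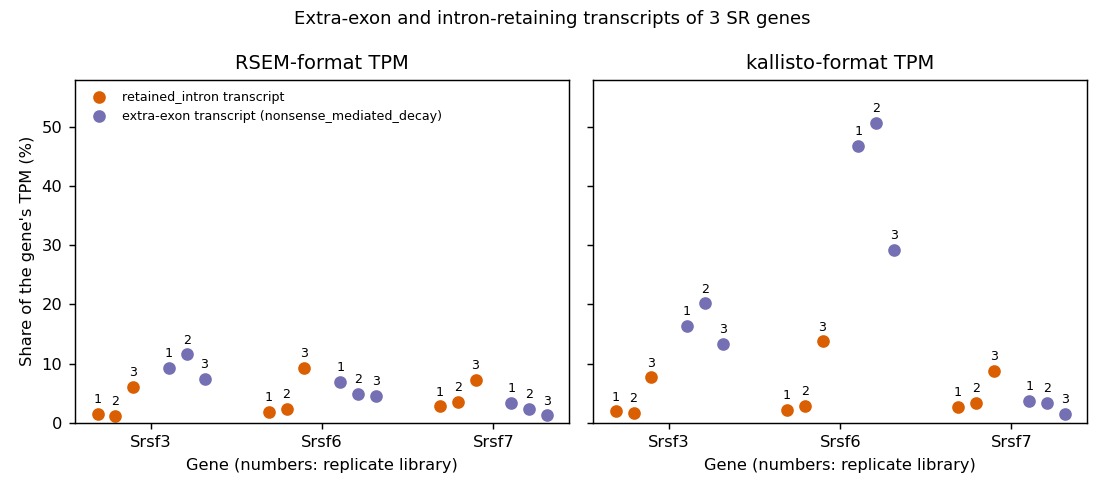
Share of the gene's TPM (%, vertical axis) of the retained_intron transcript and of the extra-exon nonsense_mediated_decay transcript of Srsf3, Srsf6 and Srsf7, in the RSEM-format (left) and kallisto-format (right) tables, with points numbered by replicate library. In each gene and table, replicate 3 is the highest point of the retained_intron transcript and the lowest point of the extra-exon transcript.

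Protein_coding transcripts of several SR genes divided the expression among themselves. Srsf5-201 was followed by Srsf5-202, with 8.37, 6.06 and 9.09 TPM, and by Srsf5-203, with 6.05, 4.78 and 2.04 TPM in replicates 1, 2 and 3. Srsf5-203 was lowest in replicate 3, where its 95% credibility interval lay below both others, while Srsf5-201 was highest there. Srsf1-205 stood beside Srsf1-201, with 6.92, 4.70 and 6.96 TPM, and Srsf1-202, with 2.97, 4.68 and 1.97 TPM. Srsf1-202 and the retained_intron transcript Srsf1-203 were both highest in replicate 2, and Srsf1-203 keeps an intron of 378 bases of Srsf1-202. Srsf10-204 was close to Srsf10-205, which had 3.91, 2.89 and 3.60 TPM. In contrast, Srsf3 and Srsf4 have 1 annotated protein_coding transcript each, and Srsf9-201 took 96.1%, 98.7% and 97.1% of the TPM of Srsf9.

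Srsf11 had the most annotated retained_intron transcripts, and 3 of them met the interval rule in replicate 3. Beside Srsf11-208 these were Srsf11-203, with 0.40, 0.16 and 1.05 TPM, and Srsf11-213, with 0.34, 0.23 and 1.04 TPM. Srsf11-211, a transcript of 521 bases, had 0.77, 0.76 and 1.03 TPM, and its 95% credibility intervals overlapped in all libraries. The whole gene was also highest in replicate 3, at 14.73 TPM, against 10.60 TPM in replicate 1 and 9.10 TPM in replicate 2.

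The second question was how far the shares depend on which deposited quantification is read. The RSEM-format tables gave the other-type isoforms 14.5%, 17.5% and 23.6% of SR gene TPM in replicates 1, 2 and 3, and the kallisto-format tables gave 19.1%, 21.8% and 26.7%. The RSEM-format share was lower by 4.64, 4.37 and 3.10 percentage points, so the direction was the same in 3 of 3 libraries. The mean difference, RSEM minus kallisto, was -4.04 ± 0.823 percentage points (SD, n = 3), with p = 0.25 in an exact two-sided sign-flip test, the smallest p that 3 libraries allow. Other genes moved in the same direction: over them the RSEM-format share was lower by 1.92, 1.31 and 2.11 percentage points, and the mean difference was -1.78 ± 0.419 (SD, n = 3). Of the 10 SR genes, 8 had the lower share in the RSEM-format table in every library, against 53.1% of 7357 genes with an other-type share above 0. Srsf2 had the higher share there in every library, against 12.5% of the same genes.

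**Figure D5:**
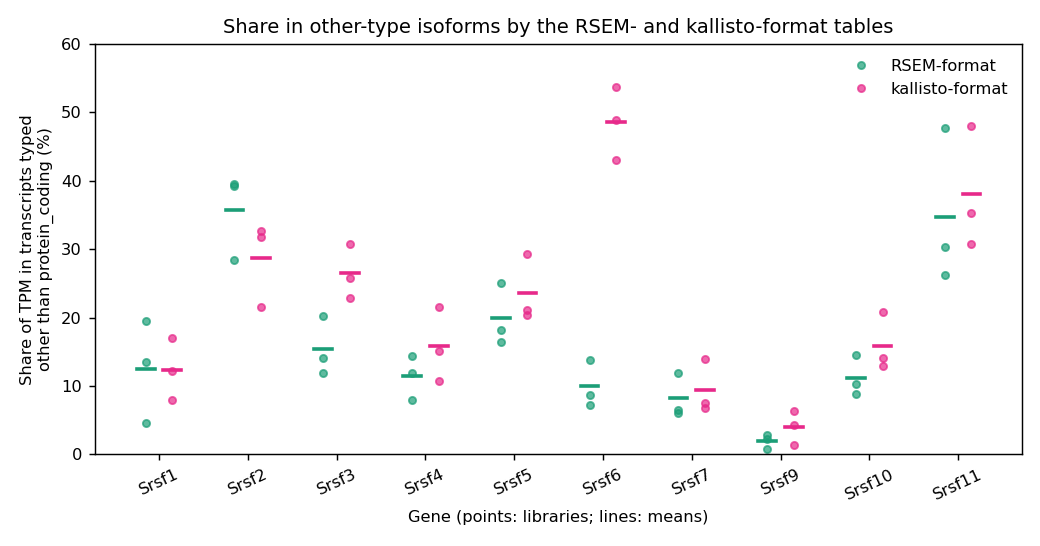
Share of each gene's TPM in transcripts typed other than protein_coding (%, vertical axis), with a point per replicate library and a line at the mean, from the RSEM-format and the kallisto-format tables. The tables differ most in Srsf6, with means of 9.94% and 48.5%.

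Srsf6 accounted for most of the difference over the SR genes. Its other-type share was 9.94 ± 3.47% in the RSEM-format tables and 48.5% in the kallisto-format tables, and most of that gap lay in the extra-exon transcript Srsf6-201. Srsf6-201 took 6.88%, 4.92% and 4.50% of the gene's TPM in the RSEM-format tables, against 46.8%, 50.8% and 29.3% in the kallisto-format tables, where it was more abundant than Srsf6-203 in replicate 2. Without Srsf6, the mean difference of the pooled share was -1.35 percentage points, beside the -1.78 of the other genes. The reason why the tables part over Srsf6-201, a transcript of 1666 bases beside Srsf6-203 of 3527 bases, was not tested.

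The tables also ranked protein_coding isoforms differently. In Srsf11 the RSEM-format tables put Srsf11-204 first, at 50.7%, 44.3% and 25.2% of the gene's TPM, and the kallisto-format tables gave it 14.3%, 13.9% and 5.55%. Srsf11-202 took 13.3%, 20.7% and 24.3% in the RSEM-format tables, against 38.4%, 37.0% and 36.5% in the kallisto-format tables. In Srsf1, Srsf1-205 took 46.6%, 35.3% and 40.4% in the RSEM-format tables, against 21.4%, 15.7% and 20.9% in the kallisto-format tables. The retained_intron shares were closer, with 4.33%, 5.53% and 12.2% pooled over the 10 genes in the RSEM-format tables and 5.26%, 6.13% and 13.3% in the kallisto-format tables.

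Of the 85 SR transcripts, 44 had at least 0.1 TPM in every library of the RSEM-format tables and 24 had at least 1 TPM, while 11 were listed at 0 in all 3 libraries. By type, 12 of 26 retained_intron, 6 of 15 nonsense_mediated_decay, 3 of 15 processed_transcript and 23 of 29 protein_coding transcripts reached 0.1 TPM in every library. A transcript listed at 0 need not lack reads. Srsf2-202, typed nonsense_mediated_decay, was listed at 0 in every library, while Srsf2-206, typed protein_coding, had 1.89, 2.26 and 1.78 TPM. The pair has the same introns and the same annotated reading frame, and Srsf2-202 contains the whole of Srsf2-206 and is longer by 10 bases. The 95% credibility intervals of Srsf2-202 reached 1.94, 2.17 and 1.67 TPM, and those of Srsf2-206 began at nearly 0. The type of this isoform is therefore not resolved by the tables. With Srsf2-206 counted among the other types, their pooled share would be 19.6%, against 18.5% as typed.

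Genes that act with the SR proteins were examined from 4 lists chosen with earlier results known, taking members at a TPM of at least 1 in every library. Over 8 genes for SR protein kinases and import, the median other-type share was 34.9%, and 1 was above 50% in every library. The median was 14.1% over 15 SR-related proteins and 6.31% over 23 hnRNP genes, which often oppose SR proteins at splice sites. It was 7.46% over 16 genes of nonsense-mediated decay and the exon junction complex, the protein mark that splicing leaves on mRNA. Over the SR genes it was 12.0%. Pooled by TPM, the retained_intron share was 4.29%, 2.72% and 12.3% in the SR-related genes in replicates 1, 2 and 3. In the hnRNP genes it was 1.86%, 1.66% and 4.89%. The nonsense_mediated_decay share was 4.75%, 4.18% and 5.74% in the SR-related genes and 8.58%, 9.23% and 8.74% in the hnRNP genes. In every library both shares were higher in the kinase and import genes than in the SR genes (retained_intron 11.8%, 8.72% and 19.6%). Both were lower in the decay and junction complex genes. The retained_intron share was highest in replicate 3 in 13 of 14 SR-related genes, 6 of 8 kinase and import genes, 16 of 17 hnRNP genes and 8 of 9 decay and junction complex genes with any signal, beside the 79.9% of all genes given above.

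The 5 listed genes with the highest mean share in RSEM-format TPM included 3 kinases. Other-type isoforms of Prpf4b, a kinase of the spliceosome, held 85.0%, 83.9% and 77.7% of its TPM in replicates 1, 2 and 3. Those of Hnrnpu, an abundant nuclear matrix and RNA-binding protein, held 78.9%, 81.9% and 80.3%. Clk1, a kinase that phosphorylates SR proteins in the nucleus, had 38.0%, 47.5% and 70.5%, and its retained_intron share was 11.4%, 5.53% and 34.5%. Clk4, its close relative, had 36.1%, 46.9% and 47.1%. Eif4a3, the RNA helicase at the core of the exon junction complex, had 40.9%, 48.0% and 41.4%. Prpf4b and Hnrnpu had an other-type isoform as their most abundant transcript in every library, which no SR gene had. The set of 5 depended on the table. In kallisto-format TPM the means were 88.1% for Prpf4b, 85.2% for Hnrnpu, 60.5% for Clk4, 50.3% for Clk1 and 29.6% for Eif4a3. Some listed genes outside the 5 stood above Clk1 and Eif4a3 there.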

How the data were processed

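Total RNA of 3 cytosolic libraries was analysed as 1 group. The build is mm10 and the annotation GENCODE M21, per the labels and the deposited notes; versions, aligner and strand setting are not given in the sources used here. The authors deposited gene and transcript tables with the columns RSEM writes and a transcript table with those kallisto writes, per the file headers. The deposited unit is TPM, beside expected counts (RSEM format) and estimated counts (kallisto format), neither rounded here. Isoform percent was deposited by the authors and recomputed here from TPM. Other deposited units are the 95% credibility bounds of TPM. RSEM-format TPM has 2 decimals, so shares of transcripts near 0.01 TPM are coarse.

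The 10 SR genes were matched by symbol, and each gene's TPM was summed by annotated type over transcripts in both tables; 97 kallisto-format transcripts absent from the RSEM format were left out, none of an SR gene. Non-gene entries (26345, holding 0.0731 to 0.406% of counts) stayed out of gene totals. The background was protein-coding genes with a protein_coding and another transcript and a TPM of at least 1 in every library. Counts of each pair of libraries differed beyond sampling noise (chi-square per degree of freedom 40.7 to 63.9 over genes with at least 10 counts). The share functions were tested on simulated data. Intervals cover counting and read assignment only.

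Named were all 10 genes, each gene's top protein_coding and top other-type transcript by mean RSEM-format TPM, the 5 genes of the splicing lists with the highest mean share, Malat1 and Neat1; transcripts beyond these (such as Srsf2-203, Srsf2-206, Srsf3-204, Srsf6-204, Srsf7-203 and Srsf11-202, and the further isoforms of Srsf1, Srsf5, Srsf10 and Srsf11) were chosen after their values were seen. The members and lists were chosen with earlier results of these data known. Analyses used Python 3.11.15, pandas 2.3.3, numpy 2.4.6 and matplotlib 3.10.9.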

Additional observations from a re-analysis of the deposited data

How the results depend on the processing

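The pooled other-type share of the SR genes was 18.5% of RSEM-format TPM. It was 10.9% by expected counts, which weight long transcripts more, and 11.1% with nonsense_mediated_decay counted as protein_coding. It was 22.6% by kallisto-format TPM, 20.3% by posterior mean TPM and 18.3% without transcripts below 0.1 TPM. The moves by kallisto-format TPM, by posterior mean TPM and without transcripts below 0.1 TPM were within the SD between libraries, 4.66 percentage points. Those by expected counts and with nonsense_mediated_decay counted as protein_coding were beyond it. The kallisto-format share was still the higher in each of the 3 libraries, so that SD does not measure the effect of the table. Leaving out a library in turn gave 16.0 to 20.5%. The retained_intron share ran from 4.93 to 8.87% in the same way, the low end without replicate 3. The RSEM minus kallisto difference ran from -4.50 to -3.73 percentage points, was -4.56 by counts, and was -1.35 without Srsf6, an alternative chosen after seeing the data. The 3 counts of genes with a dominant other-type isoform stayed at 0 under each alternative run.

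Of the 44 transcripts at 0.1 TPM in every library, 24 remained at 1 TPM, 40 were found by kallisto-format TPM, and leaving out a library gave 46 to 49. The lower credibility bound was above 0 for all 85, so it does not separate them. Shares of single genes moved by more than 1 SD in 6 of 10 genes by kallisto-format TPM and in 6 of 10 by expected counts. No paired analysis was possible because there is 1 group and so no groups that share replicate numbers. The RSEM minus kallisto difference was taken within each library. With 3 libraries, low transcripts and library effects stay loosely bounded.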
